A study of Mus musculus with 15 samples.

Results

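The Notch pathway genes described here are the receptors Notch1 and Notch2, the ligands Dll1, Dll3 and Jag1, the DNA-binding factor Rbpj, and the transcription factors Hes1, Hes5, Hes6 and Hey1. They were taken by gene symbol, from a list chosen with earlier results of these data known. They had 16 probe sets (sets of short oligonucleotides that read the same transcript) of the 20380 on the array with a single symbol, or 10 genes of 12393. RNA was measured on 15 Affymetrix mouse arrays, in neural stem cells dissected from the subventricular zone, the stem cell region beside the lateral ventricles, of adult female C57Bl6/J mice aged 6 months. The cells were grown as neurospheres (floating clusters) and used at passages 5 to 7. Undifferentiated cells (5 arrays) were kept with the growth factors bFGF and EGF, and the other 2 groups (5 arrays each) were harvested 12 h or 24 h after growth factors were withdrawn and the cells were put on poly-D-lysine with 5% serum. These changes came together, so the effects of growth factor loss, serum and surface cannot be told apart. Whether arrays of the same group stem from separate cultures is not stated in the labels. The p-values therefore describe the spread among these arrays alone, and that spread may be technical.

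In Notch signalling a ligand on the surface of a cell binds a receptor on its neighbour, the receptor is cut, and its inner part enters the nucleus and joins Rbpj and Mastermind proteins on DNA. The best known targets are the Hes and Hey genes, which encode basic helix-loop-helix repressors. Hes1 and Hes5 hold down proneural genes, and in the adult subventricular zone Notch activity is known for keeping stem cells from differentiating.

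Of these genes, Hey1 rose at both times and Hes1 fell at 24 h, and these were the changes past the test. Hey1 was 2.35-fold higher at 12 h and 2.13-fold higher at 24 h than in undifferentiated cells, while Hes1 was 3.30-fold lower at 24 h. The Hes1 signal at 24 h was low, so the size of that fall is uncertain. No call was made for Notch1, Notch2, Dll1, Dll3, Jag1, Rbpj, Hes5 or Hes6 in any of the 3 comparisons. At 12 h, 1 of 10 genes was called (1 higher, 0 lower), against 7.86% of all 7909 genes tested (3.3% higher and 4.56% lower). At 24 h, 2 of 10 were called (1 higher, 1 lower), against 32.1% of all genes tested (12.7% higher and 19.4% lower). Between 24 h and 12 h, 0 of 10 were called by limma (1 at an unadjusted p under 0.05), against 0.417% of all genes. A gene was called at a limma adjusted p under 0.05, with adjustment over all 7909 genes. The shares of called members stand beside backgrounds that were themselves large at 24 h. The median log2 difference of the 10 genes was 0.01 at 12 h and 0.42 at 24 h relative to undifferentiated cells, beside 0.0045 and -0.06 over all genes tested. The 12 h and 24 h comparisons share the undifferentiated arrays, so they are not independent of each other.

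Some properties of the arrays touch every value below. The array code in the title differed from the code of the array file for 13 of 15 samples, and for 8 the group would differ. Groups follow the titles. With groups by file code, limma called 0 of the 7909 genes in each comparison, and 118 had an unadjusted p under 0.05 at 24 h. The 12 h replicates 3 and 4 were the closest of all 105 pairs of arrays, with an SD of 0.15 on the log2 scale between them over genes, against 0.28 for the next pair. The ratio of 3' to 5' actin signal, a sign of RNA length, was 1.95 ± 0.238 in undifferentiated cells, 2.36 ± 0.148 at 12 h and 2.78 ± 0.365 at 24 h (SD, n = 5 each). It moved with the groups, and with this ratio as a covariate limma called 0 of the 10 genes at either time (3 at an unadjusted p under 0.05 in each). Over all 7909 genes it called 59 at 12 h and 13 at 24 h, against 622 and 2536 without it. Marker genes of neural stem cells were above the filter on low values in 7 of 7 cases, of astrocytes in 6 of 6, of the oligodendrocyte lineage in 6 of 6 and of neurons in 4 of 6. Those of microglia and of endothelium were above it in 0 of 6 each, those of pericytes and fibroblasts in 1 of 6 and those of ependyma in 2 of 4. The summed astrocyte marker signal was 310 to 720 in undifferentiated cells, 480 to 1604 at 12 h and 947 to 2180 at 24 h, in linear array units. The summed oligodendrocyte lineage signal was 103 to 195, 99.1 to 937 and 286 to 1289 in the same order of times. For ependyma the sum was 7.07 to 9.13, 9.17 to 17.4 and 11.6 to 23.9, and for neural stem cells it was 1184 to 2301, 1331 to 2715 and 1443 to 4026. Their part in the changes of Hey1 and Hes1 was not tested, and in bulk RNA fewer cells of a type and less RNA per cell cannot be told apart.

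To show the DNA that Rbpj recognises, the 250 bases before the start of transcription were searched for the core TGGGAA on both strands. RefSeq promoter sequences of build GRCm38.p6 were matched by symbol for 8 of the 10 genes, the others being Hes1 and Hey1, which were not searched. Those of Hes5 (chr4:154960673-154960922, plus strand) and Rbpj (chr5:53590096-53590345, plus strand) held the core, and they are printed because Hes5 is a known target of Rbpj and Rbpj encodes the factor itself. Capitals mark the core, read as TGGGAA or, from the other strand, as TTCCCA.
Hes5 promoter: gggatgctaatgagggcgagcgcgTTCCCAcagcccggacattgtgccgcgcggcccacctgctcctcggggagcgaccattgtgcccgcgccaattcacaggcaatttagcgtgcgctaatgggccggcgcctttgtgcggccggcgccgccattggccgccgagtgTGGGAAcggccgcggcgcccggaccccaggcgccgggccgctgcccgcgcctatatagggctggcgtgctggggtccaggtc
Rbpj promoter: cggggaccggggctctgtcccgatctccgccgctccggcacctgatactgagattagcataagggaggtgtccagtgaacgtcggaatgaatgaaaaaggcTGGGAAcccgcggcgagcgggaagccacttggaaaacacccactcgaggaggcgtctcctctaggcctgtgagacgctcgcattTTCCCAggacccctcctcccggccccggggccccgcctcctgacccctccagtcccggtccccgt
In the Hes5 window the cores began 226 and 82 bases before the start, and in the Rbpj window 149 and 65 bases before it. The 8 genes had 11 windows, and 3 held the core: the printed windows and a further Rbpj window that overlaps the printed one. The core occurred in 21.6% of 32851 RefSeq promoter windows of this length, and 2 or more occurred in 2.77%. The N-box, CACNAG on either strand, a sequence that Hes proteins bind, occurred in windows of Notch1, Notch2 and Hes6, beside 36.7% of all windows. A match describes letters in the window and is neither a binding site nor a cause of the levels below.

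Notch1 and Notch2 encode the receptors. Notch1 lay at log2 levels of 5.49, 6.66, 6.42, 6.62 and 6.21 in undifferentiated cells, 7.17, 6.93, 6.59, 6.55 and 6.47 at 12 h, and 6.99, 6.89, 6.87, 6.24 and 5.90 at 24 h. The groups overlapped, and undifferentiated replicate 1 was the lowest array. The differences were 0.46 ± 0.25 at 12 h (SE; adjusted p = 0.254, limma) and 0.29 ± 0.25 at 24 h (adjusted p = 0.384, limma). The second Notch1 probe set gave 0.12 at 12 h and -0.21 at 24 h, the latter in the other direction, and its groups overlapped as well.

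Notch2 lay at 3.49, 3.64, 3.92, 2.99 and 3.49 in undifferentiated cells, 4.57, 4.05, 3.58, 3.66 and 3.59 at 12 h, and 4.59, 3.21, 4.19, 4.70 and 4.11 at 24 h. At 24 h, 4 of 5 arrays lay above every undifferentiated array and replicate 2 lay among them. The 24 h difference was 0.65 ± 0.27 (95% interval 0.09 to 1.22; adjusted p = 0.0707, limma). It passed without 24 h replicate 2 (0.89, adjusted p = 0.00928, limma) and without 12 h replicate 1 (adjusted p = 0.0471), which entered through the shared variance. Within the 3 suffixes of the title codes, called A, B and C and treated as possible batches, it was 1.02, 0.25 and 0.91, and with suffix as a block 0.70 (adjusted p = 0.0293, limma). It also passed after quantile normalisation (0.79, adjusted p = 0.0355, limma), after median centring (0.80, adjusted p = 0.0423) and with a random block for runs of adjoining title codes (0.65, adjusted p = 0.0398). In all it was called in 4 of 16 alternatives besides leaving out single arrays, and in 2 of 15 fits without 1 array. It did not pass without suffix C (0.49, adjusted p = 0.340, limma) or without undifferentiated replicate 4 (adjusted p = 0.174). Within such runs it was positive in 3 of 4, and in the third it was -0.71. The other Notch2 probe set was above the filter level of 0.51 on 0 of 15 arrays.

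Dll1 and Dll3 encode Delta-like proteins. Dll1 activates receptors on neighbouring cells, while Dll3 is known mainly for acting inside the cell that makes it. Dll1 lay at 3.65, 5.03, 4.99, 5.43 and 4.61 in undifferentiated cells, 6.30, 4.98, 3.85, 3.83 and 4.89 at 12 h, and 5.95, 5.81, 5.45, 4.95 and 5.04 at 24 h. Dll3 lay at 4.16, 4.64, 5.02, 3.56 and 2.87 in undifferentiated cells, 5.78, 3.65, 3.03, 3.11 and 4.43 at 12 h, and 5.37, 5.27, 4.83, 5.04 and 4.37 at 24 h. For both genes the 12 h arrays spread widest, with replicate 1 highest and replicates 3 and 4 lowest. The SD over the 12 h arrays was 1.02 for Dll1 and 1.14 for Dll3, against 0.677 and 0.855 in undifferentiated cells. The 24 h differences were 0.70 ± 0.42 for Dll1 (adjusted p = 0.213, limma) and 0.93 ± 0.47 for Dll3 (adjusted p = 0.144, limma), with 95% intervals of -0.18 to 1.58 and -0.07 to 1.93. Neither passed, and these intervals include both no difference and more than a doubling of the signal. At 12 h the differences were 0.03 ± 0.42 and -0.05 ± 0.47, and without replicates 3 and 4 they were 0.65 (adjusted p = 0.245, limma) and 0.57 (adjusted p = 0.411, limma).

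Jag1 encodes a ligand of the Jagged family, and its signal was low. It lay at 0.07, 0.46, 0.62, 1.88 and 0.89 in undifferentiated cells, 0.41, 0.63, 1.51, 1.06 and -0.07 at 12 h, and 0.25, 0.39, 0.31, -0.33 and -0.24 at 24 h. Its mean over all arrays, 0.52, only just exceeded the filter level of 0.51, and 6 of 15 arrays lay above it, none of them at 24 h. Jag1 was thus tested only because of its undifferentiated and 12 h arrays. The size of its 24 h difference is therefore uncertain, and the calls given next are no support for a fall. The 24 h difference was -0.71 ± 0.31 (adjusted p = 0.0948, limma), and it passed without undifferentiated replicate 1 (adjusted p = 0.0452). With suffix as a block it was -0.69 (adjusted p = 0.0314, limma). It was -0.01 in suffix A, -0.90 in suffix B and -1.18 in suffix C. With a fixed or a random block for such runs it was -0.73 in both fits (adjusted p = 0.0483 and 0.0373, limma). In all it was called in 3 of the 14 alternatives that tested Jag1, and in 1 of 15 fits without 1 array. Without undifferentiated replicate 4, the highest array, it was -0.43 (adjusted p = 0.255, limma). The other Jag1 probe set was above the filter level on 0 of 15 arrays and gave 0.0069 at 24 h.

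Rbpj, which binds DNA and carries the cut receptor to its targets, showed the smallest differences of the 10 genes from undifferentiated cells. It lay between 2.39 and 3.03 in undifferentiated cells, 2.32 and 2.91 at 12 h, and 2.08 and 3.01 at 24 h. The differences were -0.0026 ± 0.19 at 12 h (95% interval -0.41 to 0.41) and 0.02 ± 0.19 at 24 h (95% interval -0.39 to 0.42). With the actin ratio as a covariate the 24 h difference was 0.45 ± 0.32 (adjusted p = 0.395, limma).

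**Figure D1:**
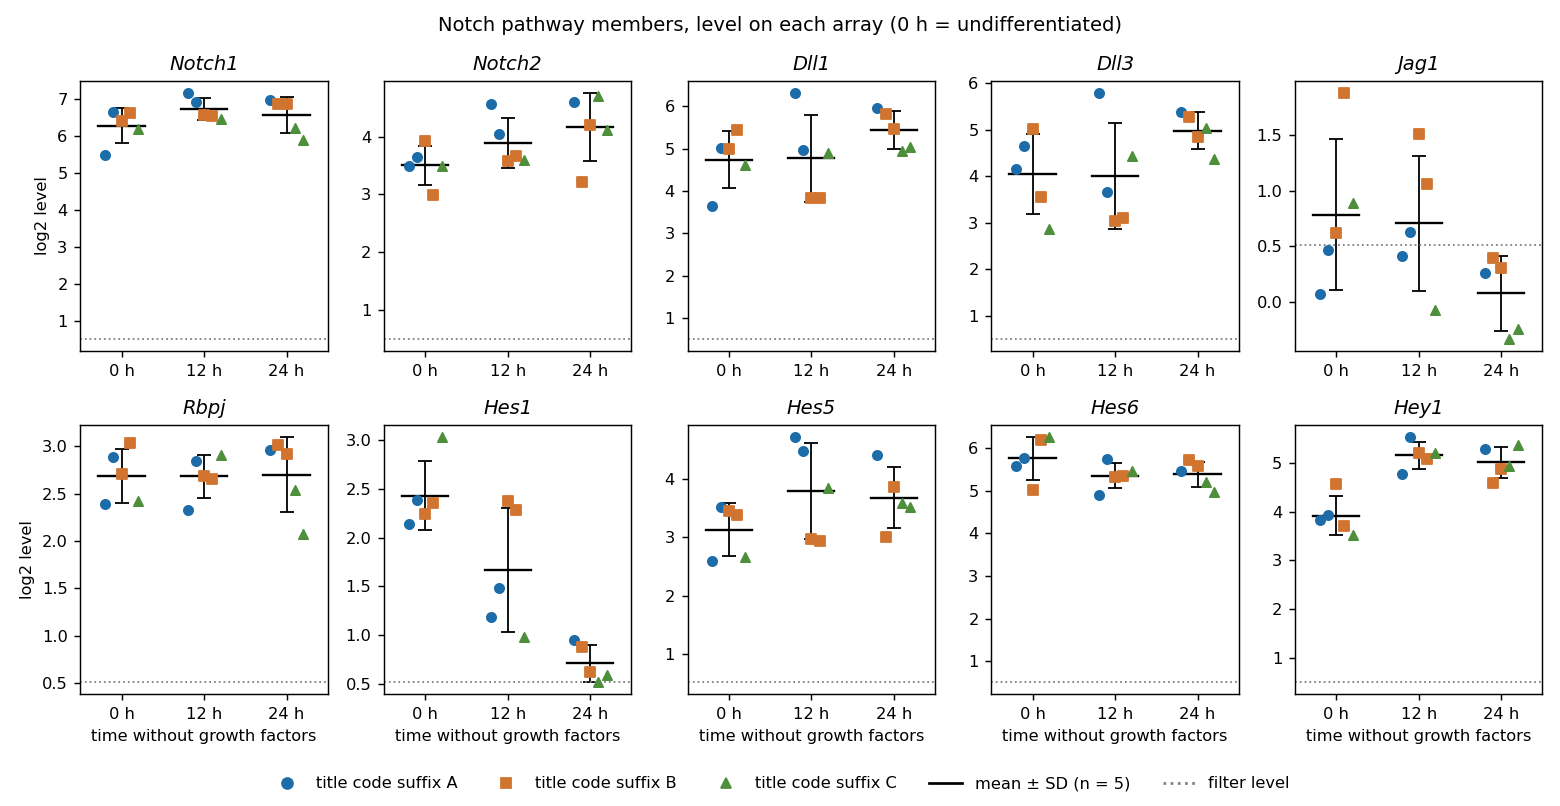
Log2 array level (vertical axis, own scale in each panel) of the 10 genes on every array, against time without growth factors, where 0 h is undifferentiated. Each point is an array, its shape and colour give the title code suffix, lines are means with SD (n = 5 per group) and the dotted line is the filter level; all 12 h and 24 h arrays lie above the undifferentiated ones for Hey1, and all 24 h arrays lie below them for Hes1.

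Hey1 encodes a repressor of the Hey family, a direct target of Notch that is also known to respond to other signals. Its log2 levels were 3.84, 3.93, 4.56, 3.71 and 3.52 in undifferentiated cells, 4.76, 5.53, 5.19, 5.06 and 5.19 at 12 h, and 5.28, 4.58, 4.87, 4.94 and 5.36 at 24 h. The highest undifferentiated array, replicate 3, lay just below the lowest 24 h array, replicate 2. The rise was 1.23 ± 0.20 at 12 h (95% interval 0.81 to 1.66; adjusted p = 0.00408, limma) and 1.09 ± 0.20 at 24 h (0.67 to 1.51; adjusted p = 0.00107, limma). Groups that do not overlap were found for 8.16% of all genes at 12 h and 25.1% at 24 h. In suffixes A, B and C the difference was 1.26, 0.99 and 1.67 at 12 h, and 1.39, 0.59 and 1.63 at 24 h. Leaving out each of the 15 arrays in turn kept the call at both times, with values of 1.14 to 1.40 at 12 h and 0.99 to 1.26 at 24 h. From 12 h, the 24 h level of Hey1 differed by -0.14 ± 0.20 (adjusted p = 0.785, limma). With the actin ratio as a covariate the differences were 1.16 at 12 h (adjusted p = 0.0532, limma) and 0.96 at 24 h (adjusted p = 0.129, limma).

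Hes1 encodes a repressor that is made in pulses in dividing neural progenitors of mice. Its levels were 2.14, 2.39, 2.25, 2.35 and 3.04 in undifferentiated cells, 1.19, 1.48, 2.38, 2.29 and 0.98 at 12 h, and 0.95, 0.87, 0.62, 0.51 and 0.59 at 24 h. All 5 arrays at 24 h lay below every array of the other groups. Against undifferentiated cells, groups did not overlap for 25.1% of all genes at 24 h. The 12 h arrays of Hes1 fell apart, replicates 3 and 4 lying at the undifferentiated level and the other 3 below it. At 24 h the levels were close to the filter level of 0.51, so the size of the difference there is uncertain. The fall at 24 h was -1.72 ± 0.25 (95% interval -2.26 to -1.19; adjusted p = 0.000296, limma). Values without each array in turn ran from -1.80 to -1.57, and it was called in all 15. Within suffixes A, B and C it was -1.31, -1.55 and -2.49. With the actin ratio as a covariate it was -1.49 (adjusted p = 0.0838, limma).

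At 12 h the Hes1 difference of -0.77 ± 0.25 did not pass (adjusted p = 0.0678, limma), and the call depended on the 2 near-identical arrays. It passed without 12 h replicate 3 (-0.95, adjusted p = 0.0199, limma), without 12 h replicate 4 (-0.92, adjusted p = 0.0293, limma) and without both (-1.22, adjusted p = 0.000953, limma). With suffix as a block the adjusted p was 0.0388 (limma). The difference was -0.93 in suffix A, 0.03 in suffix B and -2.06 in suffix C. Suffix B holds replicates 3 and 4, so this suffix and these arrays cannot be told apart. Between 24 h and 12 h Hes1 differed by -0.96 ± 0.25 (adjusted p = 0.0919, limma), with groups that did not overlap, as for 2.92% of all genes. Without 12 h replicate 5 it was -1.13 (adjusted p = 0.0185, limma), and without replicates 3 and 4 it was -0.51 (adjusted p = 0.626, limma).

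Hes5 encodes another Notch-driven repressor of neural stem cells. It lay at 2.60, 3.53, 3.46, 3.39 and 2.67 in undifferentiated cells, 4.73, 4.49, 2.98, 2.95 and 3.85 at 12 h, and 4.42, 3.01, 3.87, 3.60 and 3.52 at 24 h. The 12 h arrays were split as for Hes1 but in the other direction, replicates 3 and 4 lying within the undifferentiated range and the other 3 above it. The differences were 0.67 ± 0.35 at 12 h (adjusted p = 0.239, limma) and 0.55 ± 0.35 at 24 h (adjusted p = 0.240, limma). Without 12 h replicates 3 and 4 the 12 h difference was 1.22 (adjusted p = 0.0110, limma). Within suffixes A, B and C it was 1.54, -0.46 and 1.18 at 12 h, and 1.36, 0.02 and 0.89 at 24 h. The probe set used is of a kind that may share probes with other transcripts. The other Hes5 probe set gave 0.60 at 12 h and 0.29 at 24 h, and its 12 h replicates 3 and 4 were again the lowest of that group.

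Hes6 encodes a relative that is known to oppose Hes1 and to favour neuronal differentiation in mice. It lay at 5.58, 5.76, 5.01, 6.19 and 6.26 in undifferentiated cells, 4.91, 5.76, 5.32, 5.35 and 5.46 at 12 h, and 5.47, 5.72, 5.57, 5.21 and 4.98 at 24 h. The groups overlapped, with undifferentiated replicate 3 as low as the lower arrays of the other groups. The differences were -0.40 ± 0.22 at 12 h (adjusted p = 0.269, limma) and -0.37 ± 0.22 at 24 h (adjusted p = 0.219, limma). Without undifferentiated replicate 3 the 24 h difference was -0.56 (adjusted p = 0.0460, limma). That was the only call in 15 fits without 1 array, and 0 of 16 other alternatives called it. Within suffixes A, B and C the 24 h difference was -0.20, 0.04 and -1.16. The other Hes6 probe set gave -0.59 at 12 h and -0.71 at 24 h.

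**Figure D2:**
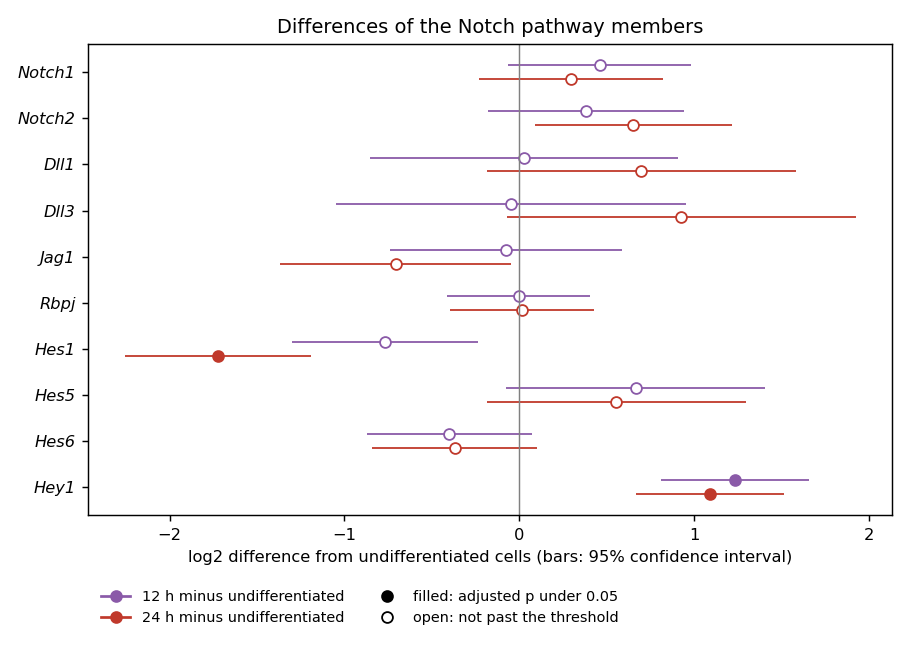
Log2 difference from undifferentiated cells (horizontal axis) of each of the 10 genes at 12 h (purple, upper) and 24 h (red, lower), with 95% confidence intervals of the limma fit. Filled points have an adjusted p under 0.05: Hey1 at 12 h (1.23) and 24 h (1.09) and Hes1 at 24 h (-1.72).

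Arrays whose title codes follow each other form 6 runs, and these were compared within themselves. Hey1 was higher than in the undifferentiated array of the same run in 5 of 5 runs at 12 h, by 0.63 to 1.67, and in 4 of 4 runs at 24 h, by 0.02 to 1.84. The run with the value of 0.02 was the third, which pairs the highest undifferentiated array with 24 h replicate 2. Hes1 was lower in 4 of 4 runs at 24 h, with differences of -2.45 to -1.37. At 12 h it was lower in 4 of 5 runs, with differences of -2.06 to 0.14. At 12 h the differences of Dll1 were 2.66, -0.05, -1.15, -1.60 and 0.28 over the 5 runs. Dll3, in the same runs, gave 1.62, -0.98, -1.98, -0.45 and 1.56. At 24 h both ligands were higher in 4 of 4 runs, by 0.02 to 0.93 for Dll1 and by 0.25 to 1.496 for Dll3. The 12 h values of these ligands thus ran in both directions, while the 24 h values ran in the same direction.

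**Figure D3:**
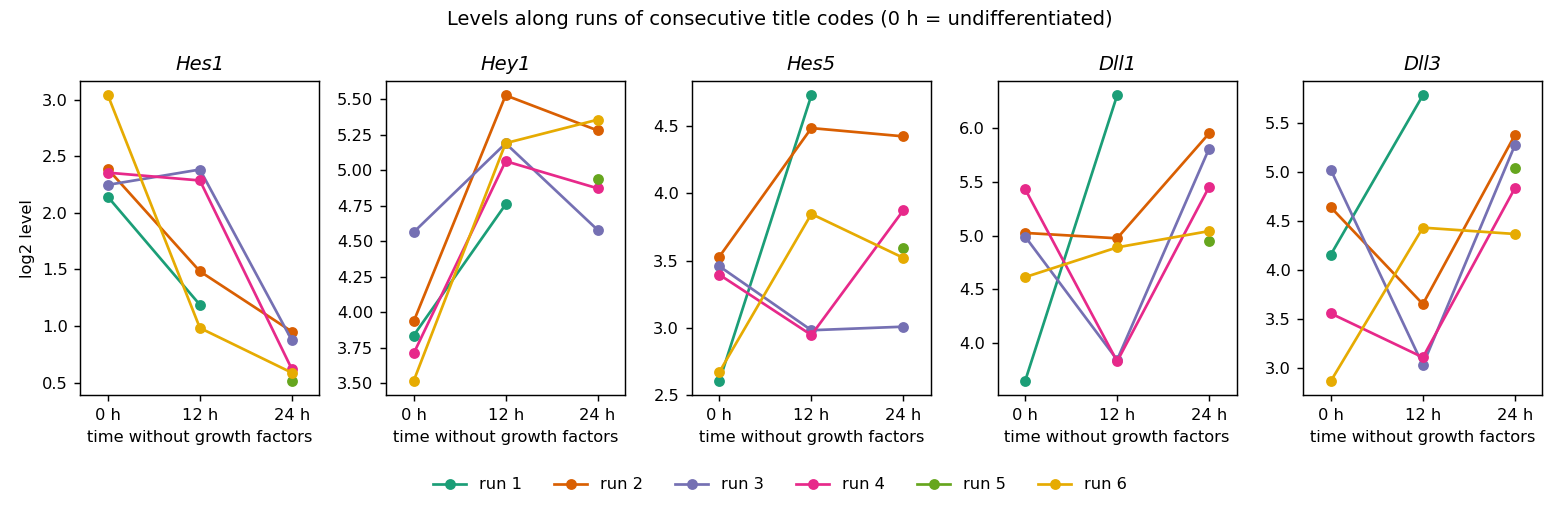
Log2 level (vertical axis, own scale in each panel) of Hes1, Hey1, Hes5, Dll1 and Dll3 against time without growth factors, where 0 h is undifferentiated. Each point is an array and lines join arrays of the same run of consecutive title codes; Hey1 is higher at 12 h than at 0 h in all 5 runs that hold both, while Hes5, Dll1 and Dll3 go down at 12 h in runs 3 and 4.

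Of 65 other genes of the pathway, listed by role, 55 had a probe set with a single symbol and 37 passed the filter on low values. At 12 h, 0 of 37 were higher, 2 were lower and 35 did not pass, and at 24 h, 3 were higher, 5 were lower and 29 did not pass. For 24 h against 12 h limma called 0 of 37, and 6 had an unadjusted p under 0.05, as did 1188 of all 7909 genes. Their median log2 difference was 0.08 at 12 h and 0.01 at 24 h relative to undifferentiated cells. The counts of 2 of 37 at 12 h and 8 of 37 at 24 h stand beside the 7.86% and 32.1% of all genes called there.

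Tle2, a Groucho family corepressor that works with Hes proteins, and its relative Tle6 fell at both times. Tle2 lay at 1.93, 3.02, 2.01, 3.30 and 2.78 in undifferentiated cells, 1.07, 0.46, 1.02, 0.90 and 0.50 at 12 h, and 0.30, 0.37, 0.14, 0.20 and 0.09 at 24 h. Tle2 differed by -1.82 ± 0.23 at 12 h (SE; adjusted p = 0.000953, limma) and by -2.39 ± 0.23 at 24 h (adjusted p = 1.63e-05, limma). Tle6 lay at 3.35, 3.39, 2.68, 4.10 and 3.81 in undifferentiated cells, 1.51, 0.89, 1.46, 1.44 and 1.16 at 12 h, and 0.77, 0.85, 0.89, 1.10 and 0.84 at 24 h. For both genes every 12 h and 24 h array lay below all undifferentiated arrays. Groups did not overlap for 8.16% of all genes at 12 h and for 25.1% at 24 h. All 5 Tle2 arrays at 24 h also lay below the filter level of 0.51, as did 12 h replicates 2 and 5 (0.46 and 0.50). The size of the Tle2 difference is therefore uncertain at both times. Tle6 differed by -2.18 ± 0.21 at 12 h (adjusted p = 4.23e-05, limma) and by -2.58 ± 0.21 at 24 h (adjusted p = 3.04e-06, limma). Tle5, a short member that is known to oppose the others, fell by 1.42 ± 0.33 at 24 h (adjusted p = 0.00497, limma). It differed by -2.37 in suffix A, -0.42 in suffix B and -1.35 in suffix C, and without suffix C the call was lost (-1.29, adjusted p = 0.0548, limma). These were 3 of the 10 corepressors tested at 24 h, and 7 did not pass. Lfng, which adds sugars to Notch receptors and so changes which ligands they answer to, had levels of 2.28, 2.08, 2.37, 2.19 and 1.36 at 24 h, against 4.43, 3.85, 3.11, 3.04 and 3.23 in undifferentiated cells. No 24 h array of Lfng reached the lowest undifferentiated array, and groups did not overlap for 25.1% of all genes there. The fall of Lfng was 1.48 ± 0.30 (adjusted p = 0.00203, limma). Its other probe set gave -0.69, but its mean over all arrays, -0.04, lay below the filter level. With the actin ratio as a covariate, limma kept the calls of Tle2 (-1.56, adjusted p = 0.0337) and Tle6 (-2.11, adjusted p = 0.00359) at 12 h and of Tle6 at 24 h (-2.46, adjusted p = 0.0151), and the other 7 genes called at 24 h lost theirs. Among these the difference was smaller than without the covariate for Lfng (-0.61, adjusted p = 0.429, limma), Tle5 (-0.51, adjusted p = 0.582) and Tle2 (-1.92, adjusted p = 0.0570). It was larger for Numbl (0.88, adjusted p = 0.0730, limma), Dtx3 (1.14, adjusted p = 0.0834) and Maml1 (0.94, adjusted p = 0.131), and close to the same for Fbxw7 (-0.69, adjusted p = 0.318).

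Numbl, related to Numb, an inhibitor of Notch, rose by 0.56 ± 0.15 at 24 h (adjusted p = 0.00884, limma), and it was called without each array in turn. Its signal was low, with undifferentiated replicate 5 at the filter level of 0.51, so the size of the rise is uncertain. The groups overlapped, with 24 h replicate 5 (1.11) below undifferentiated replicates 2 and 3 (1.13 and 1.14). Calls for 3 more genes at 24 h were lost when certain single arrays were left out. Dtx3, of the Deltex family of ubiquitin ligases, rose by 0.64 ± 0.21 (adjusted p = 0.0285, limma), and the call was lost without undifferentiated replicates 4 or 5 or 24 h replicates 1 or 4 (adjusted p up to 0.0794). Maml1, a Mastermind coactivator, rose by 0.58 ± 0.21 (adjusted p = 0.0428, limma), and the call was lost without undifferentiated replicates 1, 2, 3 or 5, 12 h replicate 5, or 24 h replicates 1, 3 or 4 (adjusted p up to 0.107). Fbxw7, which marks cut Notch receptors for destruction, fell, with a difference of -0.67 ± 0.23 (adjusted p = 0.0368, limma), and the call was lost without undifferentiated replicates 3, 4 or 5 or 24 h replicates 2, 3, 4 or 5 (adjusted p up to 0.102). The Fbxw7 call was also lost after quantile normalisation (-0.49, adjusted p = 0.0870, limma), after median centring (-0.52, adjusted p = 0.0799) and without suffix C (-0.51, adjusted p = 0.256). Maml1 lost its call with no filter (adjusted p = 0.0527, limma), with runs as a fixed block (adjusted p = 0.0766) and without suffix C (adjusted p = 0.133). Without suffix C the Dtx3 call was lost too (0.59, adjusted p = 0.115, limma). Of 16 alternatives besides leaving out single arrays, 13 called Dtx3, 10 called Maml1 and 10 called Fbxw7. None of the 7 genes for receptor cleavage that were tested was called by limma at either time (1 at an unadjusted p under 0.05 at each). The other Hes and Hey genes on the array, Hes2, Hes3, Hes7, Hey2 and Heyl, were all below the filter level, as were the proneural genes Neurog1, Neurog2, Neurod1, Neurod4 and Atoh1.

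**Figure D4:**
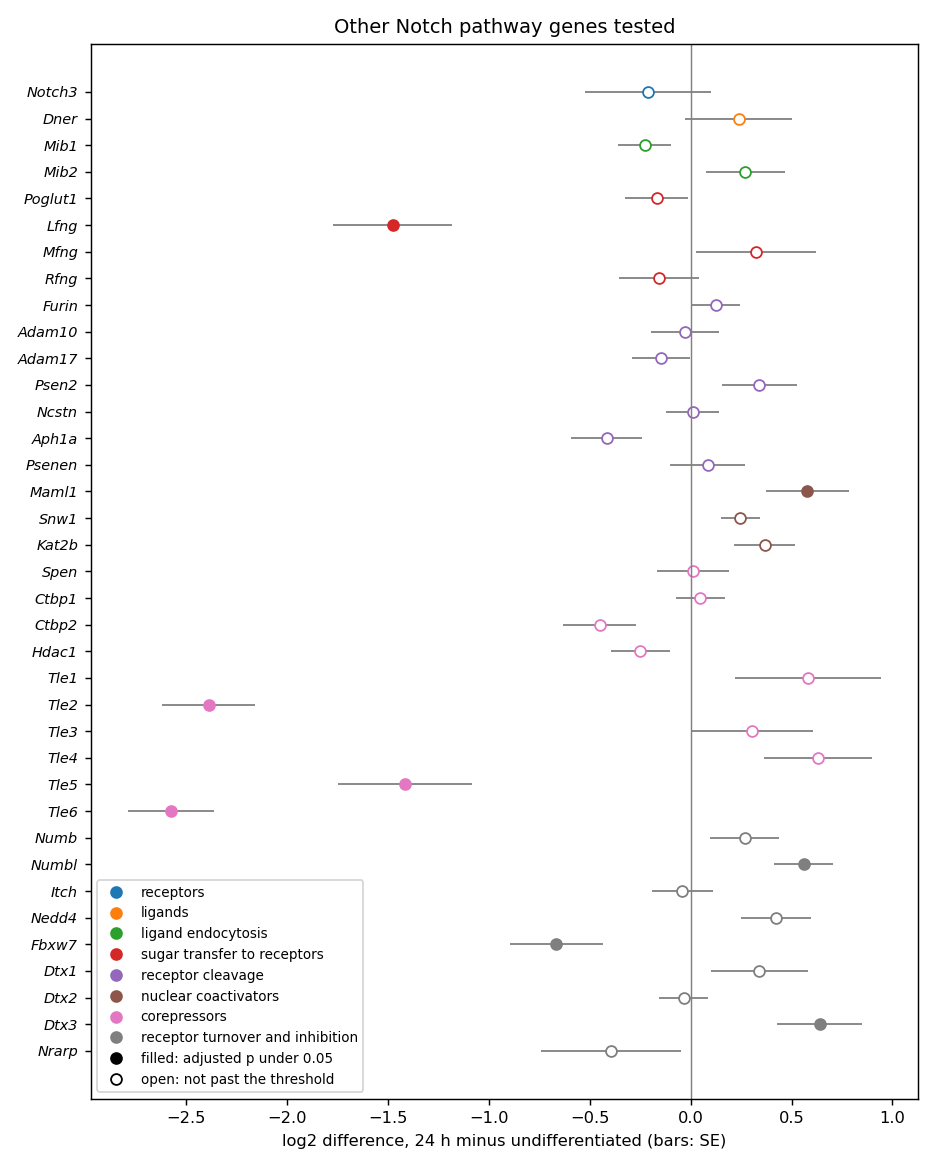
Log2 difference at 24 h against undifferentiated cells (horizontal axis) of the 37 other Notch pathway genes that passed the filter, coloured by role, with SE bars. Filled points have an adjusted p under 0.05; Tle6 (-2.58) and Tle2 (-2.39, with 24 h levels below the filter level) lie lowest and Dtx3 (0.64) lies highest.

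The genes whose pattern over the 15 arrays was most like that of Hey1, each centred on its own mean, were Fgfr2, Limch1 and Fgd4, with mean absolute differences of 0.18, 0.21 and 0.22 on the log2 scale. The median over all genes was 0.59. For Hes1 they were Smpdl3b, Golm1 and Plvap, with 0.19, 0.21 and 0.21, against a median of 0.74. Arrays are shared between these genes, and the likeness is a description.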

How the data were processed

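Total RNA of 15 samples was labelled with biotin and hybridised to 1 Affymetrix mouse array each, per the labels' protocols. The authors deposited 1 log10 value per probe set and array, and the submitters' processing notes name MAS5 alone. Settings and scaling were not given in the sources used here, and neither was the log base, which was settled with hybridisation spike-ins: a 10-fold step in their concentration moved the deposited values by 1.07 ± 0.0655 (mean and SD of 15 arrays). Multiplying by 3.32 turned them into log2 values, with no further normalisation. Array medians ran from 0.95 to 1.50 on that scale, so levels carry an unknown offset, and the number of arrays limits the precision.

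Probe sets with a single symbol in the platform annotation were used (20380 of 22626 besides controls, of which 20351 matched GRCm38.p6 names). A gene with several probe sets was represented by that of highest mean, and the 7909 genes above the 40th percentile of probe set means (log2 0.51) were tested. A limma fit (version 3.58.1, R 4.3.3) held all 15 arrays, with 1 mean per group and a variance trend, and p-values were adjusted by Benjamini-Hochberg over all genes tested. Simulated data with 200 changed genes were used to test the fit. The genes described and the lists were chosen with earlier results of these data known. All 10 genes are named, as are the listed pathway genes called in any comparison and the 3 nearest patterns of each called gene. Alternatives changed the group labels, the filter, the normalisation, the probe set choice, the variance model, the batch terms, an actin covariate and the arrays included. Replicate numbers follow accession order and pair nothing.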

Additional observations from a re-analysis of the deposited data

Results flagged for a closer look

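Hes1 in undifferentiated replicate 5 lay at 3.04 on the log2 scale, while the other 4 undifferentiated arrays lay between 2.14 and 2.39. The gap was 0.727 of the range of the group, above the critical value of 0.71. The second Notch2 probe set lay at 0.083 in 12 h replicate 1, and the remaining 12 h arrays ran from -0.098 to -0.048, a gap of 0.724 of the range, and all its values were below the filter level. These were 2 of 48 groups of 5 arrays examined, and chance flags about 1 in 20. Without undifferentiated replicate 5 the fall of Hes1 at 24 h was -1.57 and still passed.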

How the results depend on the processing

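Of the 16 alternatives besides leaving out single arrays, 14 kept Hey1 called at both times, and 13 of the 15 that tested Hes1 kept it called at 24 h; the exceptions were groups by file code and the actin ratio as a covariate. The number of the 10 genes called at 12 h was 0 with file codes and with the actin covariate, 2 with the title code suffix as a block, with runs as a random block and with 12 h replicates 3 and 4 averaged (each adding Hes1), and 3 with these replicates left out, against 1. At 24 h it was 0 with file codes and the actin covariate, 1 with the stricter filter, under which Hes1 was not tested, 4 with the suffix as a block or runs as a random block (each adding Notch2 and Jag1), and 3 after quantile normalisation or median centring (adding Notch2) and with runs as a fixed block (adding Jag1), against 2. For 24 h against 12 h it was 1 with runs as a random block (Hes1) against 0. The calls over all genes moved too. At 12 h they were 59 with the actin covariate, 1476 with the suffix as a block, 1458 with runs as a random and 1169 as a fixed block, 404 with only the groups compared, 70 without suffix C, 888 with 12 h replicates 3 and 4 averaged and 1920 with these left out, against 622. At 24 h they were 13 with the actin covariate, 1873 of 5721 with the stricter filter, 3308 with the suffix as a block, 3309 with runs as a random and 3077 as a fixed block and 1128 without suffix C, against 2536. For 24 h against 12 h they were 202 with the suffix as a block, 235 with runs as a random block, 52 without suffix C, 17 after median centring, 18 with the mean over probe sets, 2 with runs as a fixed block or only the groups compared, and 1 with the actin covariate or 12 h replicates 3 and 4 averaged or left out, against 33. With file codes they were 0 at each time. Leaving out each array gave 1 to 2 genes at 12 h, 2 to 3 at 24 h and 0 to 1 between the times. The labels give no replicate numbers to pair samples by, and runs of title codes were the only pairing tried. Where a direction turned round, the cause was not tested. Over all genes at 24 h, calls were 1582 higher and 1316 lower after quantile normalisation and 1431 and 1110 after median centring, against 1003 and 1533, and the median log2 difference of all genes was 0.04 and 0.09 against -0.06.

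With file codes the 12 h differences were -0.17 for Notch2, 0.020 for Jag1, 0.24 for Rbpj, 0.39 for Hes6, 0.29 for Tle2 and 0.16 for Tle6. At 24 h they were -0.17 for Notch2, -0.40 for Dll3, 0.070 for Jag1, -0.20 for Hes5, 0.27 for Hes6, -0.080 for Numbl, 0.18 for Fbxw7 and -0.098 for Dtx3. Between 24 h and 12 h they were -0.0022 for Dll1, -0.081 for Dll3, 0.050 for Jag1, -0.21 for Rbpj, 0.022 for Hes1, -0.13 for Hes6 and 0.12 for Hey1.

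Rbpj at 12 h was 0.040 after quantile normalisation, 0.0050 after median centring, 0.054 as the mean over probe sets, 0.24 with the actin covariate, and 0.00081 and 0.0066 with 12 h replicates 3 and 4 averaged or left out. Dll3 at 12 h was 0.28 with the actin covariate and 0.19 and 0.57 with these arrays averaged or left out. Jag1 at 12 h was 0.13 with the actin covariate and 0.15 without suffix C, and Dll1 was -0.035 without suffix C. Rbpj at 24 h was -0.0055 and -0.025 with runs as a random or fixed block, and -0.0028 and -0.022 between 24 h and 12 h. Also between 24 h and 12 h, Hes5 was 0.0029 after quantile normalisation, 0.024 after median centring, 0.017 with the suffix as a block and 0.12 with the actin covariate. Hes6 there was -0.047 as the mean over probe sets and -0.0031 with runs as a fixed block, and Notch1 was 0.12 with the actin covariate and 0.11 without suffix C.

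Leaving out single arrays gave ranges that crossed 0 for Dll1 (-0.36 to 0.26), Dll3 (-0.49 to 0.20), Jag1 (-0.28 to 0.20) and Rbpj (-0.077 to 0.087) at 12 h, and for Rbpj (-0.062 to 0.17) at 24 h. Between 24 h and 12 h they did for Rbpj (-0.072 to 0.17), Hes5 (-0.33 to 0.12), Hes6 (-0.081 to 0.13) and Notch1 (-0.27 to 0.0049).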
